A study of Mus musculus with 12 samples.

Results

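The comparison described here set follicular B cells labelled Zfx cko against wild-type cells after 2 h of stimulation through the B cell receptor. Its 4 arrays, 2 of each genotype, were chosen by their titles out of the 12 arrays of the series, and it was read over 12190 genes. All cells came from spleens of male 129SvEv mice of 8 weeks and were sorted as follicular B cells by a gate on B220, AA4.1, CD23 and CD21. Both groups were cultured with anti-IgM at 10 µg/mL for 2 h. The other 8 arrays hold the same genotypes at 0 h and at 12 h of anti-IgM, and every group has 2 arrays. The series title names Zfx as a regulator of proliferation and survival after B cell receptor stimulation, which is the question the comparison addresses. The labels do not say which Cre line was used, which exons were deleted or how many mice stand behind a group. Labelled RNA was hybridized in duplicate, so the 2 arrays of a group may be technical repeats, and p-values then measure only the spread between these arrays.

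Anti-IgM crosslinks the B cell receptor, whose kinases SYK, LYN and BTK raise calcium and activate the MAPK and NF-kB pathways. Immediate early genes such as Egr1 and the Nr4a genes are switched on within the early hours, before cells grow and enter the cell cycle. Zfx is an X-linked zinc finger transcription factor known for its role in the self-renewal of embryonic and hematopoietic stem cells. The integrated stress response, which recurs below, begins when kinases that sense amino acid shortage or misfolded protein phosphorylate the initiation factor eIF2. Translation then shifts toward ATF4, a transcription factor that switches on amino acid synthesis and transport, tRNA charging and the regulators Ddit3 and Trib3.

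Values below are GCOS signals on a linear scale or differences of log2(signal + 16), cko minus wild type, ± SE with n = 2 arrays per group. A gene was called when the Benjamini-Hochberg adjusted p of limma over the 12190 genes was under 0.05, and only called genes are said to rise, fall or be higher or lower. The log2(signal + 16) scale understates the change of dim genes. The 2% trimmed mean was 250 on each array, and the median signal of the 4 arrays ran from 29.1 to 32.1. Duplicates correlated at r = 0.984 in wild type and 0.982 in cko over probe sets, and arrays of different genotype at 0.972 to 0.973. The 5′ signal of actin was 8.51% and 8.41% of its 3′ signal on the wild-type arrays and 10.6% and 10.8% on the cko arrays, and that of Gapdh was 6.29% and 5.26% against 8.75% and 8.02%. The 0 h arrays had actin ratios of 1.8% to 3.33%, and at 12 h the genotypes lay far apart (2.11% and 2.27% in wild type, 19.1% and 19% in cko). For this reason 12 h values are given only beside others. The part of RNA quality in the differences was not tested.

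The Zfx probe sets did not separate the genotypes downward. The brightest gave signals of 810 and 790 on the wild-type arrays and 974 and 1035 on the cko arrays. Its difference of 0.32 ± 0.09 was called (adjusted p = 0.0155, limma), but not without wild-type array 1 (0.34), wild-type array 2 (0.30) or cko array 2 (0.28). At 0 h the same probe set was 1.23 ± 0.09 higher in cko. A pair of other Zfx probe sets that passed the filter was not called (-0.19 ± 0.42 and 0.54 ± 0.25), and the last, at 14.5 to 19.9, lay under the filter on low signal. Where these probes lie against the deleted part is not given here, so they do not check the genotype, and cko stands below for the arrays labelled so. Of the related genes, Zfy2 and Zfp711 lay under the filter on low signal and Zfy1 had no probe set with a single symbol. Xist, the X inactivation transcript, was near 100 in both groups (98.5 and 82.0 against 110 and 102) and was not called.

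After 2 h, 3469 of the 12190 genes were called (28.5%), 1560 of them higher in cko (12.8%) and 1909 lower (15.7%). Counts of list members below are to be read against these shares. A difference of at least 2-fold was reached by 136 higher and 372 lower genes. The median over all genes was -0.02. The count of higher genes fell to 1007 without wild-type array 1, to 1034 without cko array 1 and to 940 without cko array 2, and 65.4% to 68.6% of all calls were kept with any one of the 4 arrays left out. The groups did not overlap for 63.6% of all genes, with 30.3% higher and 33.3% lower in cko, so lack of overlap between pairs of arrays says little here. With the brightest probe set of each gene replaced by the mean over its probe sets, 1415 genes were higher and 1374 lower.

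**Figure D1:**
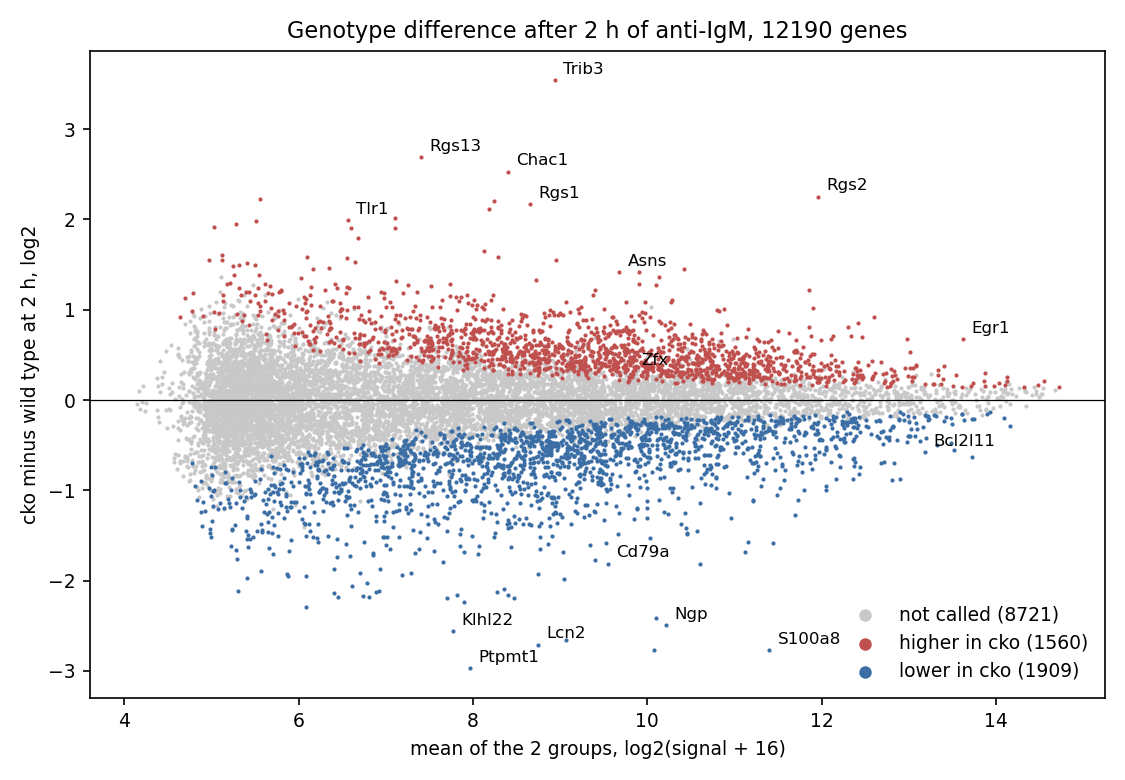
Difference between genotypes after 2 h (cko minus wild type, log2) against the mean of the groups on the log2(signal + 16) scale, 1 point per gene, red for genes called higher and blue for genes called lower. Trib3 stands at 3.54 at the top and Ptpmt1 at -2.97 at the bottom, and Zfx lies just above 0.

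The largest rises were in genes of amino acid stress and in regulators of G protein signalling. Trib3, a pseudokinase induced by ATF4 and CHOP, gave 123 and 132 on the wild-type arrays and 1565 and 1754 on the cko arrays (3.54 ± 0.53, 11.7-fold, adjusted p = 0.000253). Chac1, an enzyme that degrades glutathione, went from 171 and 85.5 to 704 and 860 (2.53 ± 0.25). Bcat1, the cytosolic aminotransferase of branched-chain amino acids, went from 146 and 106 to 635 and 626 (2.20 ± 0.19). Slc1a4, a transporter of neutral amino acids, went from 50.5 and 59.4 to 258 and 241 (1.91 ± 0.23). In each of these both cko arrays lay above both wild-type arrays, but the rule that named them required this, so it adds no support.

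The G protein regulators Rgs13, Rgs2 and Rgs1, which speed the shutdown of chemokine receptor signals in B cells, formed the other leading set. Rgs13 gave 38.9 and 63.6 in wild type and 418 and 403 in cko (2.69 ± 0.24). Rgs2 gave 1963 and 1658 against 8822 and 8509 (2.25 ± 0.08, adjusted p = 5.97e-10), and Rgs1 181 and 167 against 855 and 824 (2.17 ± 0.20). Of 4 Rgs2 probe sets, 3 rose by 2.25 to 2.39 and a dim one was not called (0.29). Tlr1, which pairs with Tlr2 in the recognition of bacterial lipopeptides, went from 19.1 and 45.9 to 172 and 166 (1.99 ± 0.21).

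The other large rises were in dimmer genes with less related roles. Zdhhc12, a palmitoyltransferase, went from 48.9 and 55.8 to 222 and 302 (2.01 ± 0.35). Map3k12, a kinase upstream of JNK, rose by 1.90 ± 0.27 from 25.9 and 43.2 to 179 and 161, while its other probe set differed by 0.06. Ccdc39, a ciliary protein, rose by 1.79 ± 0.26 and Frrs1, a ferric reductase, by 1.65 ± 0.24. All 12 of these rises kept their call in every alternative analysis run.

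Of 17 tested genes of the integrated stress response, 7 were higher in cko and 0 lower, against 12.8% and 15.7% of all genes, with a median of 0.25. That median was 0.46 without wild-type array 1, 0.43 without cko array 2 and 0.48 over the mean of probe sets. Besides Trib3 and Chac1 these were Eif4ebp1, the repressor of cap-dependent translation (861 and 768 to 2234 and 2252, 1.45 ± 0.07), and Ddit3, which encodes CHOP (1277 and 1202 to 2417 and 2575, 1.0 ± 0.09). Herpud1, a factor of the degradation of misfolded ER protein, rose by 0.73 ± 0.13. Atf4 rose from 4452 and 4329 to 7095 and 7219 (0.70 ± 0.06), while its dimmer probe set was not called (0.28). The second Ddit3 probe set differed by -0.03, and over the mean of both the Ddit3 call was lost (0.48). Ppp1r15a, which encodes the phosphatase subunit GADD34 that ends the response, rose by 0.54 ± 0.14, and this call was lost without wild-type array 2 (0.53), cko array 1 (0.54) or cko array 2 (0.54). The eIF2 kinases Eif2ak2, Eif2ak3 and Eif2ak4 were not called (0.67, -0.05 and -0.52), nor was Atf5 (-0.17).

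Enzymes that make amino acids and carry carbon on folate followed, with 9 of 17 higher, 1 lower and a median of 0.58. Asns, asparagine synthetase, gave 492 and 479 in wild type and 1345 and 1297 in cko (1.41 ± 0.10), and its other probe set rose alike (1.49). Gpt2, the mitochondrial alanine aminotransferase, rose by 1.52 ± 0.18 from 46.8 and 39.6 to 139 and 170. Aldh18a1 of proline synthesis rose by 1.09 ± 0.13. The serine pathway enzymes Psat1 (2730 and 2597 to 5474 and 5386, 1.02 ± 0.07) and Phgdh (0.60 ± 0.07) and the mitochondrial folate enzyme Mthfd2 (0.81 ± 0.09) were also higher. The member that fell was Gclm, the regulatory subunit of glutathione synthesis (451 and 511 to 174 and 182, -1.36 ± 0.15).

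Of 13 amino acid transporters, 2 rose and 0 fell (15.4% called, under the 28.5% of all genes). After Slc1a4 this was Slc3a2, the heavy chain shared by several amino acid exchangers (3989 and 4152 to 7183 and 7513, 0.85 ± 0.06). Its partner Slc7a5 was not called (0.10 ± 0.14). The ligases that charge tRNAs had 12 of 21 members higher and 2 lower, with a median of 0.38. Over the mean of probe sets 13 were higher and 0 lower. Probe sets of the member Farsb were called in opposite directions (0.695 and -1.328). Cars (135 and 159 to 341 and 357, 1.17 ± 0.22) was highest, followed by Tars (0.71 ± 0.07), Mars1 (0.68 ± 0.08), Yars (0.59 ± 0.14), Lars (0.55 ± 0.07), Sars (0.50 ± 0.07), Kars (0.45 ± 0.09) and Nars (0.45 ± 0.06). The Yars call was lost without wild-type array 1 (0.40). Counts of the 4 lists moved little with any array left out, to 6 to 7, 7 to 9, 2 and 11 to 12 higher members.

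**Figure D2:**
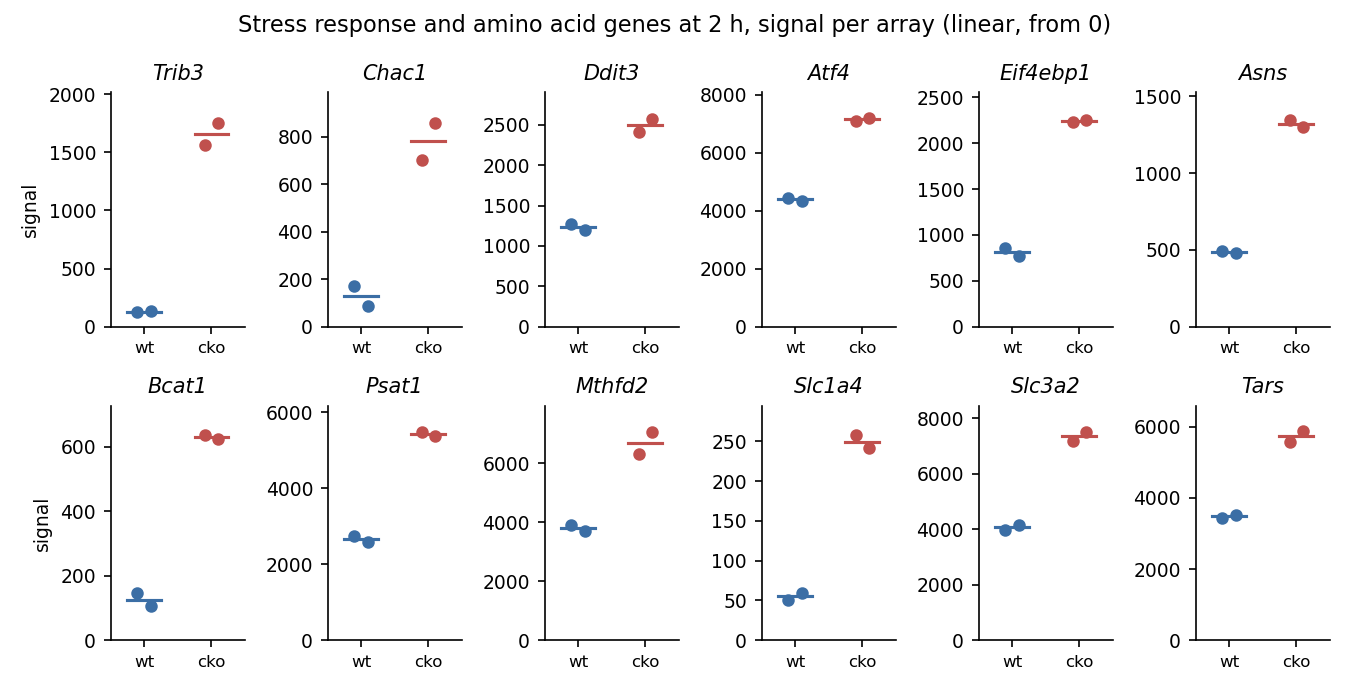
Linear signal on each of the 4 arrays (points, 2 per genotype, blue wild type, red cko) and group means (bars) for 12 stress and amino acid genes, each panel with its own axis from 0. In every panel both cko arrays lie above both wild-type arrays, from Trib3 (123 and 132 against 1565 and 1754) to Tars. The 12 were picked among genes called higher, so this separation adds no support. Of all genes, 30.3% had both cko arrays above both wild-type arrays. Members of the same lists that were not called are not drawn.

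ATF4 and its C/EBP partners bind a composite element whose core reads TGATGNAA. The 250 bases upstream of each gene's start in the RefSeq promoter table (GRCm38.p6) were searched for these letters on both strands (TTNCATCA on the other). Of 30 genes of these 4 lists that rose, 26 had a window, and 7 of them (26.9%) held the letters. The share was 3 of 26 (11.5%) for members not called and 0 of 2 for those that fell, beside 3.91% of all 27025 genes with a window. The lists hold processes that ATF4 is known to switch on, so a share above that of all genes may come with the lists themselves. The gap between members that rose and members not called was not tested. A match is a description of letters and not a measured binding site. The windows of the 4 genes with a match that rose most are shown, to set the letters in their context, with the match in capitals.
Chac1 (chr2:119350992-119351241, plus strand): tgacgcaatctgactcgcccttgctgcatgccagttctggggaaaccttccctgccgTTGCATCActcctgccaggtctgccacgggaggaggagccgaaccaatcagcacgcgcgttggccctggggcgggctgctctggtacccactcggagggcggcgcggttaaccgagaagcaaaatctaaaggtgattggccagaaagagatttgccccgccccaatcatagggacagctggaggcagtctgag
Asns (chr6:7693210-7693459, minus strand): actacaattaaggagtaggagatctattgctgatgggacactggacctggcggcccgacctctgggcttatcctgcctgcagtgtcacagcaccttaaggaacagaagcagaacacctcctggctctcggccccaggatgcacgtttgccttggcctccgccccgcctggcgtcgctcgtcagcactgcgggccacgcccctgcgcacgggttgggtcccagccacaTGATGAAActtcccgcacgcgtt
Herpud1 (chr8:94386179-94386428, plus strand): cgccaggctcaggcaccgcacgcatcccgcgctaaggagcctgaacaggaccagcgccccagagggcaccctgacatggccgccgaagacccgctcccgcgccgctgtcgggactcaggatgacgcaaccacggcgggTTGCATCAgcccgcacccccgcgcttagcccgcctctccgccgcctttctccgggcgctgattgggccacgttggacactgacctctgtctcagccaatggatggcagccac
Tars (chr15:11399659-11399908, minus strand): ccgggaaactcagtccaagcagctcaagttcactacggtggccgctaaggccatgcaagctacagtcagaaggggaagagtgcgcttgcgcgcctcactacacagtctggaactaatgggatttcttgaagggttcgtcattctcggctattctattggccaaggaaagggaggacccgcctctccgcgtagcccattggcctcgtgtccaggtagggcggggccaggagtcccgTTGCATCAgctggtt
The match ends 16 bases before the start in Asns, 8 in Tars, 105 in Herpud1 and 186 in Chac1. The other 3 with a match were Got1, Aars and Gars. Trib3, Ddit3, Bcat1 and Slc1a4 have no match in the windows listed, which says only that these letters are not there.

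The immediate early genes, the earliest targets of receptor signals, were mostly higher in cko, with 18 of 29 higher and 4 lower, and a median of 0.38. They were already apart at rest, with 15 higher and 5 lower at 0 h and a median of 0.24, against 16.3% and 16% of all genes. The same direction was called at both times in 11 of the 29, and in 1348 of all 12190 genes. Egr1 gave 10175 and 9775 in wild type and 15383 and 16586 in cko (0.68 ± 0.06, adjusted p = 3.77e-06), and Egr2 rose alike (0.68 ± 0.12). Atf3, a stress-induced repressor, went from 755 and 733 to 1408 and 1425 (0.91 ± 0.12). Nr4a2, an orphan nuclear receptor, went from 2760 and 2780 to 4936 and 4825 (0.81 ± 0.19). Ier2 (0.71 ± 0.10) and the antiproliferative gene Btg2 (0.68 ± 0.07) rose too. Among AP-1 factors Fosl1 rose (0.91 ± 0.27) and Fosl2 fell (-0.79 ± 0.26), and neither call held without any one of the 4 arrays (0.78 to 1.03 and -0.81 to -0.76). Myc gave 4870 and 4505 against 5863 and 5784, groups that did not overlap, but was not called (0.31 ± 0.12, adjusted p = 0.0693). It was called under quantile normalization (0.36), with array weights (0.31) and on the 4 arrays alone (0.31). With an array left out, 14 to 15 of the 29 were higher, and 2 lower without wild-type array 2 or cko array 1.

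Of 13 genes of feedback on MAPK signalling, 2 were higher and 1 lower (23.1% called, under the 28.5% of all genes). Dusp6, the phosphatase of ERK, rose from 135 and 106 to 347 and 286 (1.29 ± 0.16) and Spred2, an inhibitor of RAS to RAF signalling, by 0.75 ± 0.15. Errfi1, an inhibitor of EGF receptor kinases, fell from 814 and 765 to 340 and 398 (-1.07 ± 0.13). The remaining 10 of 13 members were not called.

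Of 11 EGR corepressors and genes of the MYC network, 4 fell, 0 rose and 7 were not called. Mxd4 fell from 605 and 588 to 191 and 254 (-1.37 ± 0.11), and Max, the shared dimer partner, from 396 and 364 to 179 and 195 (-0.96 ± 0.17). Mnt, a repressor that pairs with MAX, fell by 0.63 on the log2 scale. Mxd1 fell by 0.67, a call lost without wild-type array 1 (-0.61) or cko array 1 (-0.50). The corepressors Nab1 and Nab2 of the EGR factors were not called (-0.14 ± 0.06 and -0.36 ± 0.15), and Nab2 was called on the 4 arrays alone (-0.36).

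Among NF-kB genes 6 of 18 were lower and 1 was higher. Bcl3, a nuclear IkB protein, fell from 571 and 627 to 276 and 280 (-1.06 ± 0.09). The inhibitors Nfkbid (-0.50 ± 0.07) and Tnfaip3 (-0.35 ± 0.08) fell, and the subunit Rel rose (0.33 ± 0.08). Smaller falls were those of Relb (-0.27), Tnip1 (-0.21) and Nfkbie (-0.18). The Relb call was lost without any one of the 4 arrays (-0.29 to -0.26), and those of Tnip1 (-0.23, -0.19 and -0.17) and Nfkbie (-0.19, -0.17 and -0.12) without wild-type array 1, wild-type array 2 or cko array 1. Without wild-type array 1, wild-type array 2 or cko array 1 just 3 members were lower, and 3 under median scaling.

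The proximal receptor pathway had 9 of 25 members lower and 3 higher. Cd79a, the signalling chain of the receptor, gave 1505 and 1276 in wild type and 389 and 378 in cko (-1.81 ± 0.12, adjusted p = 1.75e-07). Cd81, a tetraspanin, fell from 1829 and 1694 to 869 and 858 (-1.01 ± 0.06). The kinase Syk went from 996 and 932 to 586 and 613 (-0.67 ± 0.07), the exchange factor Sos1 fell by 0.83 and the adaptor Bank1 by 0.35. Pik3r1, Vav2 and Dapp1 were called at -0.48, -0.42 and 0.44. The Pik3r1 and Dapp1 calls were lost without any one of the 4 arrays (-0.54 to -0.43 and 0.38 to 0.51), and that of Vav2 without wild-type array 2 (-0.39) or cko array 2 (-0.34). With an array left out, 6 to 7 members were lower, and 1 was higher without wild-type array 2.

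Of 18 inhibitory receptors and phosphatases, 7 were lower, 2 higher and 9 not called. Ptprj, a receptor phosphatase, went from 127 and 152 to 71.8 and 60.02 (-0.93 ± 0.20). Inppl1, the lipid phosphatase SHIP2, fell by 0.58 and Siglecg, a sialic acid receptor, by 0.57. Cd5 rose by 0.42 ± 0.14, a call lost without any one of the 4 arrays (0.37 to 0.47), which left 1 higher member each time. In the calcium pathway 6 of 18 were lower and 1 higher. Stim1, the calcium sensor of the ER, went from 138 and 135 to 62.7 and 63.0 (-0.95 ± 0.16). Orai2 rose by 0.76 ± 0.26 and Atp2a3, the calcium pump of the ER, fell by 0.61. Those calls were lost without wild-type array 1 (0.82 for Orai2, -0.49 for Atp2a3), and also without wild-type array 2 (0.71) or cko array 2 (0.46) for Orai2 and cko array 1 (-0.50) for Atp2a3. Over the means of probe sets 2 calcium genes were lower.

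Markers of follicular B cells had 8 of 12 lower and 1 higher, with a median of -0.23 and a summed signal of 38718 and 37956 in wild type against 35143 and 34807 in cko. At 0 h the list ran the other way, with 8 higher and 1 lower, against 16.3% and 16% of all genes, and a median of 0.19. The summed signal at 0 h was 92273 and 92781 in wild type against 108040 and 106900 in cko. Pax5, the factor that keeps B cell identity, gave 200 and 198 against 86.2 and 108 (-0.93 ± 0.13), Cd55 fell by 0.63 and Cd22 by 0.34. Ms4a1, which encodes CD20, was higher at 0.18 ± 0.05, a call lost without wild-type array 2 (0.13) or cko array 1 (0.17). All 12 markers with a probe set reached a signal over 100 on at least 1 of the 4 arrays. Under median scaling 5 of the 12 were lower. Of 24 B cell transcription factors, 6 were lower and 2 higher. Besides Pax5, Aff3 (-0.76 ± 0.12), Bcl11a (-0.68 ± 0.08) and Ets1 (2056 and 1918 to 1315 and 1288, -0.60 ± 0.06) fell and Elf1 rose (0.59 ± 0.08). The other Ets1 probe sets were not called (-0.22 to 0.08). Of the other Bcl11a probe sets, that at 0.44 rose, those at -0.68 and -0.83 fell and those at -0.16 and -0.28 were not called. Spi1, which encodes PU.1, fell by 0.74, a call lost without wild-type array 1 (-0.64) or cko array 1 (-0.65). Without wild-type array 2 or cko array 2, 1 member was higher.

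Markers of other cell types moved with genotype too. Of 15 tested myeloid and neutrophil markers, 10 were lower in cko and 1 higher, with a median of -1.14. S100a8, a granule calcium-binding protein of neutrophils, gave 6906 and 7158 in wild type and 954 and 1080 in cko (-2.77 ± 0.09, adjusted p = 5.97e-10). Its partner S100a9 gave 2835 and 2738 against 372 and 421 (-2.77 ± 0.09). The granule genes Lcn2 (1034 and 1138 to 162 and 143, -2.71 ± 0.11), Ngp (2907 and 2685 to 443 and 526, -2.49 ± 0.09) and Camp (2513 and 2530 to 473 and 449, -2.41 ± 0.10) fell, as did Lyz2, lysozyme (632 and 624 to 231 and 234, -1.37 ± 0.09). The summed signal of the list was 18006 and 18038 on the wild-type arrays and 3289 and 3585 on the cko arrays. Itgam (0.715 to 6.50) and C1qa (1.93 to 3.60) were near 0 on all 4 arrays, and 6 of the 17 markers with a probe set were under 100 on all 4. Mpo rose by 1.29 ± 0.36 from 3.96 and 10.5 to 34.1 and 46.8, a call lost without wild-type array 1 (1.08) or cko array 2 (1.12). Ltf fell by 1.20, a call lost without wild-type array 1 (-1.03) or cko array 1 (-0.63). In bulk RNA, fewer cells of a type and less RNA per cell cannot be told apart. The part of such cells in the other differences was not tested.

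Among erythroid markers Slc4a1, the anion exchanger of red cells (165 and 158 to 27.6 and 21.2, -2.14 ± 0.20), and Alas2 of heme synthesis (196 and 210 to 60.4 and 60.4, -1.52 ± 0.17) fell and 6 of 8 were not called, while Hba-a1 was at 2.41 to 13.8. The summed signal of the list was 4388 and 4369 against 3949 and 3800, most of it from the transferrin receptor Tfrc (3812 and 3745 against 3617 and 3477), which dividing cells of other types carry too. Without Tfrc the sum was 576 and 624 against 332 and 322. T and NK cell markers had 1 higher and 1 lower of 11, their summed signal was 1677 and 1775 against 1806 and 1885, and 8 of the 15 with a probe set were under 100 on all 4 arrays. Cd4 (3.45 to 8.82) and Cd3e (3.18 to 22.3) were near 0, while Cd3d (130 to 156), Cd3g (62.2 to 131), Zap70 (139 to 227) and Cd2 (762 to 846) were above them. Stromal and endothelial markers were under 100 on all 4 arrays for all 12 genes. Markers of immature, marginal zone and B1 cells moved both ways, with 3 of 12 higher and 4 lower. Cd1d1 rose from 101 and 109 to 236 and 197 (0.94 ± 0.16), and S1pr3 by 0.83 ± 0.10, while Dtx1 (-0.73 ± 0.07) and Zbtb20 (-0.69 ± 0.10) fell, and 2 members were lower without wild-type array 1 or cko array 2. The plasma cell marker Sdc1 fell by 1.0 from 103 and 132 to 40.2 and 62.3, and the other 8 of its list were not called. Without cko array 2, 2 of the 9 were lower, and without the 12 h arrays 4 of the 9.

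Among the 12 largest falls, S100a8, S100a9, Lcn2, Ngp and Camp belong to the myeloid list. Chil3, a chitinase-like protein of macrophages and neutrophils (1309 and 1345 to 201 and 194, -2.65 ± 0.10), Wfdc21 (732 and 756 to 140 and 160, -2.20 ± 0.17) and Cyp4f18, an enzyme that inactivates leukotriene B4 in neutrophils (392 and 468 to 91.2 and 72.6, -2.19 ± 0.15), are not on it. The largest fall was in Ptpmt1, a mitochondrial phosphatase of cardiolipin synthesis, with 666 and 698 in wild type and 68.9 and 77.2 in cko (-2.97 ± 0.13, adjusted p = 8.16e-09). Klhl22, a substrate adaptor of a CUL3 ubiquitin ligase, went from 516 and 510 to 71.7 and 75.7 (-2.56 ± 0.12). Cep170b, a microtubule-associated protein, went from 546 and 454 to 80.0 and 109 (-2.23 ± 0.16). Mki67, the proliferation marker Ki-67, gave 132 and 119 against 1.77 and 31.2 (-2.29 ± 0.39). All 12 falls kept their call in every alternative run.

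**Figure D3:**
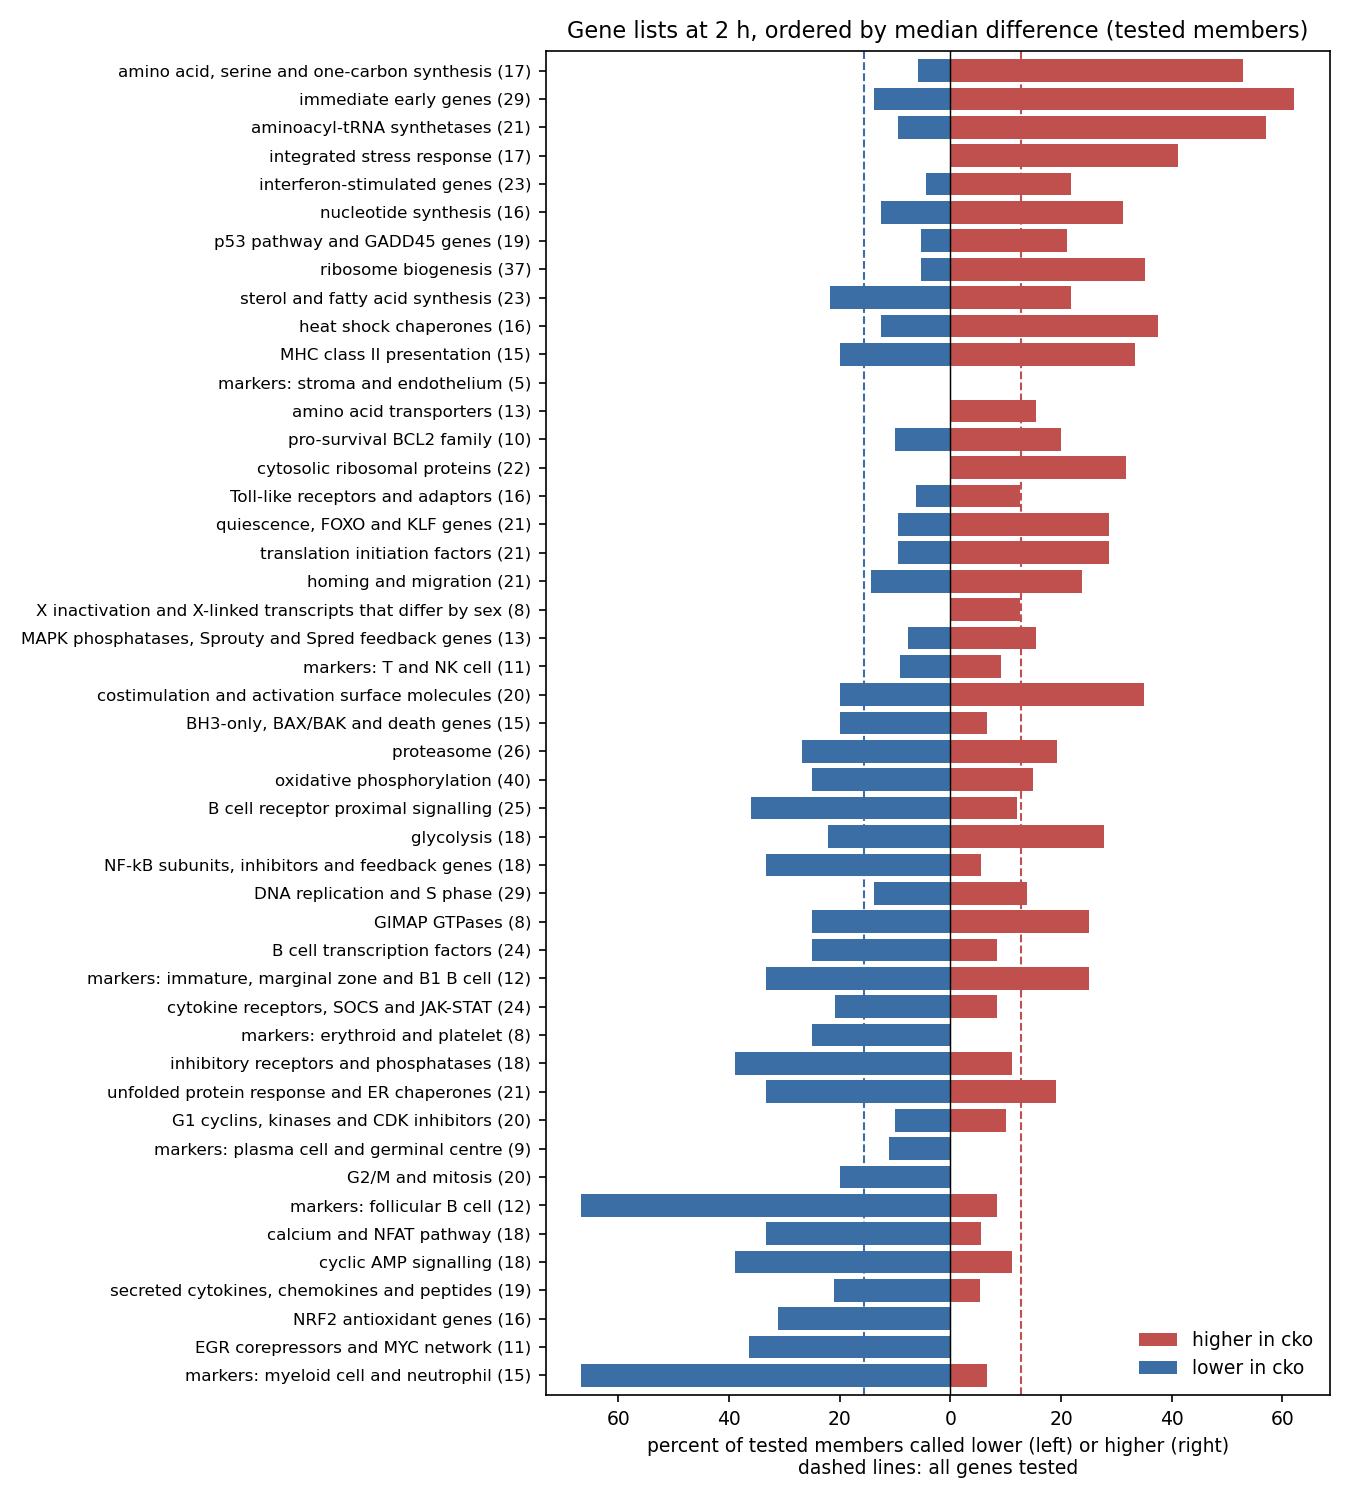
Percent of the tested members of each gene list (number in parentheses) called higher (right, red) or lower (left, blue) after 2 h, ordered by the median difference, with dashed lines at the 12.8% and 15.7% of all genes. Immediate early genes, tRNA synthetases and amino acid synthesis reach farthest to the right, and myeloid and follicular markers farthest to the left.

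Of 10 pro-survival genes, 2 were higher and 1 lower, a share (30%) near the 28.5% of all genes. Cflar, the inhibitor of caspase-8, rose by 0.45 ± 0.09, Bcl2 by 0.21 ± 0.06 and the kinase Pim1 fell by 0.24. Neither the Bcl2 call (0.20 to 0.22) nor that of Pim1 (-0.27 to -0.22) held without any one of the 4 arrays, which left 1 higher member. Bcl2l1, which encodes BCL-XL, gave 857 and 858 against 551 and 698 and was not called (-0.46 ± 0.17, adjusted p = 0.064). On the 4 arrays alone, and without the 12 h arrays, it was called at the same difference. Mcl1 differed by 0.05 ± 0.05 on its brightest probe set, while 3 of its 6 probe sets were called higher (0.31 to 0.40), as was their mean (0.25). Among death genes, 3 of 15 fell and 1 rose (26.7%), again near that share. Bcl2l11, which encodes the killer BIM, went from 11372 and 11400 to 7826 and 7428 (-0.58 ± 0.11, adjusted p = 0.00133), with 3 of 5 probe sets called lower. Bnip3 fell from 491 and 496 to 163 and 173 (-1.47 ± 0.10), and Diablo, released by mitochondria to free caspases, rose by 0.38 ± 0.06. Bad fell by 0.68, a call lost without wild-type array 1 (-0.35) or cko array 2 (-0.62).

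Of 19 genes of the p53 pathway, 4 were higher and 1 lower (26.3% called, near the 28.5% of all genes). Gadd45g rose by 0.66 ± 0.12 and the nuclease Aen by 0.45 ± 0.11. Phlda3 rose by 0.80 ± 0.26, a call lost without wild-type array 1 (0.47), cko array 1 (0.75) or cko array 2 (0.86), and 2 members were then higher. Cdkn1a, the CDK inhibitor p21, was not called (1015 and 857 to 657 and 781, -0.37 ± 0.14), though it was called lower with a pseudocount of 64 (-0.35) and on the 4 arrays alone (-0.37).

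Of 20 genes of the G1 phase, 2 were higher and 2 lower (20% called, under the 28.5% of all genes). With any one array left out, 1 was lower. Ccnd2, the early cyclin of stimulated B cells, gave 3866 and 3752 against 3470 and 3344 and was not called (-0.16 ± 0.06, adjusted p = 0.0543). It was called lower under quantile normalization (-0.17), with the filter at the 60th percentile (-0.16) and with array weights (-0.16). A pair of its other probe sets was called lower (-0.435 and -0.22), and the rest were not called (0.02 to 0.63). Ccne1 fell from 304 and 254 to 92.1 and 64.6 (-1.65 ± 0.14). The kinase Cdk6 (1417 and 1394 to 2287 and 2427, 0.74 ± 0.06) and the CDK inhibitor Cdkn1b (0.78 ± 0.16) rose. Of 29 replication genes, 4 were higher and 4 lower (27.6% called, near the share of all genes). They were led by Rrm2, the small subunit of ribonucleotide reductase (-1.25 ± 0.13), and Gins2 (-1.01 ± 0.19). Without wild-type array 2 or cko array 1, 2 replication genes were higher. Among 20 mitotic genes 4 fell and 0 rose (20% called, under the share of all genes). Mki67 was the largest and Cdk1 followed (111 and 104 to 39.6 and 41.0, -1.13 ± 0.29), a call lost without wild-type array 1 (-1.09) or cko array 1 (-1.11). With an array left out 1 to 2 mitotic genes were lower, 1 of them without cko array 1.

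Protein folding genes were split. Of 21 genes of the unfolded protein response, 7 were lower and 4 higher. The kinase sensor Ern1 (IRE1) went from 179 and 213 to 71.6 and 88.2 (-1.15 ± 0.18) and the cochaperone Dnajc3 fell by 1.15, while Sdf2l1 rose from 166 and 196 to 394 and 363 (1.01 ± 0.11). Pdia4 rose by 0.80 ± 0.28, a call lost without any one of the 4 arrays (0.59 to 1.02). The counts fell to 2 higher and 3 to 4 lower with an array left out. Of 16 heat shock genes, 6 rose and 2 fell. Dnajb4 (0.72 ± 0.14) and the inducible chaperone Hspa1b (1837 and 2013 to 3243 and 2913, 0.67 ± 0.10) rose. Hsf2 fell by 0.92, a call lost without wild-type array 1 (-0.86). Without cko array 2 just 2 heat shock genes were higher, and 3 without wild-type array 1.

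Of 16 NRF2 targets and regulators, 5 were lower and 0 higher, with a median of -0.30. Sod1 went from 9383 and 11189 to 5507 and 5688 (-0.87 ± 0.08), Cat, catalase, from 1192 and 827 to 678 and 412 (-0.89 ± 0.18, and -0.54 without cko array 2) and Txnrd1, thioredoxin reductase, from 851 and 750 to 435 and 481 (-0.78 ± 0.16). Keap1, the inhibitor of NRF2, fell by 0.84 and Sod2 by 0.34. Gclm, above, is a known target of the same factor. These 5 were lower with each of the 4 arrays left out.

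Ribosome biogenesis genes had 13 of 37 members higher and 2 lower, with a median of 0.20. Dkc1, the pseudouridine synthase of snoRNPs, went from 3095 and 3336 to 5242 and 4998 (0.67 ± 0.13), and Utp4 (0.56 ± 0.11) and Bop1 (0.52 ± 0.10) rose as well. Wdr12 rose by 0.51 ± 0.15, a call lost without wild-type array 1 (0.56), wild-type array 2 (0.46) or cko array 2 (0.43). The count of higher members was 6 without cko array 2. Ribosomal proteins had 7 of 22 higher and 0 lower with a median of 0.10, which became 0.04 under quantile normalization. Rpl11 rose by 0.36 ± 0.06. Without wild-type array 2 or cko array 2, 3 ribosomal proteins were higher. Of 21 initiation factors 6 were higher and 2 lower, led by Eif2b4, a subunit of the exchange factor that eIF2 phosphorylation inhibits (2020 and 2011 to 2719 and 2866, 0.47 ± 0.09), and 3 were higher without cko array 2.

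Energy and biosynthetic lists were split. Of 40 respiratory chain genes, 10 were lower and 6 higher, for example Ndufv2 of complex I (-0.70 ± 0.05) and Atp5o of ATP synthase (0.50 ± 0.07). Without wild-type array 1 or cko array 1 the lower members numbered 6 and 5. In glycolysis 5 of 18 rose and 4 fell. Pfkp, the platelet phosphofructokinase, went from 556 and 588 to 1557 and 1544 (1.41 ± 0.12) and Pdk1, which restrains pyruvate oxidation, from 332 and 333 to 203 and 150 (-0.87 ± 0.12). Higher members numbered 2 without wild-type array 2, 1 without cko array 1 and 2 without cko array 2, and lower ones 2 without wild-type array 1. Sterol genes had 5 of 23 higher and 5 lower, among them Insig1, which retains the SREBP complex in the ER (0.67 ± 0.11). Mvd rose by 0.67 ± 0.16, a call lost without cko array 2 (0.58). The sterol list had 3 lower members with any one array left out, and 3 higher without wild-type array 2 or cko array 1. In nucleotide synthesis 5 of 16 rose and 2 fell. Atic, the last enzyme of purine synthesis, went from 2003 and 2276 to 753 and 877 (-1.38 ± 0.09), and Dhodh of pyrimidine synthesis rose by 0.76 ± 0.18, a call lost without wild-type array 1 (0.58) or cko array 2 (0.67), which left 3 higher members.

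Of 20 surface molecules of activation, 7 were called higher and 4 lower, but the median was -0.005. It ran from -0.052 to 0.042 with an array left out. Cd69 went from 2750 and 2750 to 4046 and 3902 (0.53 ± 0.09). The PD-1 ligands Pdcd1lg2 (738 and 632 to 1838 and 1713, 1.36 ± 0.17) and Cd274 (1045 and 1068 to 1972 and 1829, 0.84 ± 0.10) and the SLAM receptors Slamf1 (1.01 ± 0.13) and Cd48 (0.76 ± 0.10) rose. Tnfrsf9 rose by 1.58 ± 0.46, from 73.4 and 11.7 to 108 and 162, and the call was lost without wild-type array 2 (0.73) or cko array 2 (1.32), while the difference was 2.42 without wild-type array 1. Cd86 was lower by a small amount (3819 and 3815 to 3153 and 3453, -0.21 ± 0.07), a call lost without wild-type array 1 (-0.21), wild-type array 2 (-0.21) or cko array 1 (-0.14). The other Cd86 probe set, with means of 3695 in wild type and 3587 in cko, was not called (-0.04). Over the mean of both the Cd86 call was lost (-0.125). Cd24a fell by 0.43. Lower members numbered 2 without wild-type array 1 and 1 without cko array 1. Of 15 MHC class II genes, 5 rose and 3 fell, led by Rfxap, a subunit of the RFX factor of class II promoters (676 and 671 to 413 and 466, -0.60 ± 0.11), and 2 rose without wild-type array 2 and 3 without cko array 2. Of 23 interferon-stimulated genes 5 were higher and 1 lower (26.1% called, near the 28.5% of all genes). Oas1a rose by 0.90 ± 0.13 and Rsad2 fell by 0.84, a call lost without wild-type array 1 (-0.63).

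Of 18 cyclic AMP genes, 7 were lower, 2 higher and 9 not called, with a median of -0.28. Pde3b, which degrades cyclic AMP, went from 2407 and 2489 to 1196 and 1292 (-0.97 ± 0.09), and Prkaca, the catalytic subunit of protein kinase A, from 284 and 267 to 130 and 144 (-0.93 ± 0.09). The cyclase Adcy7 fell by 0.57. Ptger2, a prostaglandin receptor that raises cyclic AMP, rose from 7.98 and 3.55 to 90.3 and 80.4 (2.23 ± 0.30), and Crem by 0.50 ± 0.12. Among 24 cytokine receptor and JAK-STAT genes 5 were lower and 2 higher (29.2% called, near the 28.5% of all genes). They were led by Il6ra (187 and 196 to 90.3 and 106, -0.87 ± 0.16) and Jak2 (1837 and 1827 to 1057 and 1076, -0.77 ± 0.07). With any one array left out, 3 were lower and 1 higher. Of 19 secreted factors 4 fell and 1 rose (26.3% called, again near that share). Vegfa rose by 1.26 ± 0.29 and Il1b fell by 1.02. The Vegfa call was lost without wild-type array 1 (1.01) or cko array 1 (1.05), and that of Il1b without any one of the 4 arrays (-1.12 to -0.91). Without cko array 2, 2 secreted factors were lower.

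Homing genes had 5 of 21 higher, with the 3 Rgs genes and S1pr3 in front, and 3 lower, led by Itga4, the alpha chain of VLA-4 (-0.60 ± 0.09), and Itgb2 (-0.45 ± 0.08). Of 21 quiescence genes 6 were higher and 2 lower. Klf4 (0.70 ± 0.12) and Klf10 (0.64 ± 0.14) rose, and Foxo1 fell from 770 and 724 to 444 and 466 (-0.70 ± 0.09). Of 16 Toll-like receptor genes 2 rose and 1 fell (18.8% called, under the 28.5% of all genes). After Tlr1, Tlr2 rose by 0.51 ± 0.17, a call lost without wild-type array 2 (0.30), cko array 1 (0.50) or cko array 2 (0.53), and Ly86, the partner of the receptor RP105, fell by 0.31. Of 8 GIMAP genes 2 rose and 2 fell, led by Gimap9 (0.77 ± 0.21), and its call was lost without any one of the 4 arrays (0.74 to 0.79), with 0 higher members left. Lower members numbered 1 without wild-type array 1 and 0 without wild-type array 2 or cko array 1. Of 26 proteasome genes 7 were lower and 5 higher, led by Psmd2 (-0.55 ± 0.09) and Psma4 (0.45 ± 0.08). Lower members numbered 2 without wild-type array 1 and 3 without cko array 1 or cko array 2, and higher ones 3 without wild-type array 1 or wild-type array 2.

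The differences after 2 h were then set beside those of resting cells, which come from other arrays. At 0 h 3938 genes were called (32.3%), 1983 higher and 1955 lower. Of the genes higher after 2 h, 568 were also higher at 0 h, which is 36.4% of the former and 28.6% of the latter. Of the lower genes, 780 were shared, 40.9% and 39.9%. A further 412 genes were called in opposite directions at the 2 times. The stress genes were already apart at rest, with Trib3 at 3.73 ± 0.53, Chac1 at 2.42 ± 0.25, Asns at 1.21 ± 0.10, Ddit3 at 1.17 ± 0.09 and Atf4 at 0.60 ± 0.06 at 0 h. At 12 h, across the gap in actin ratios, 51.3% of genes were called, 21.4% higher and 29.9% lower, and Trib3 stood at 4.57, Chac1 at 2.80 and Atf4 at 2.09. All 12 of the largest falls were also lower at 0 h, from -0.92 (Ngp) to -2.42 (Lcn2). Of the 12 largest rises 9 were also higher.

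**Figure D4:**
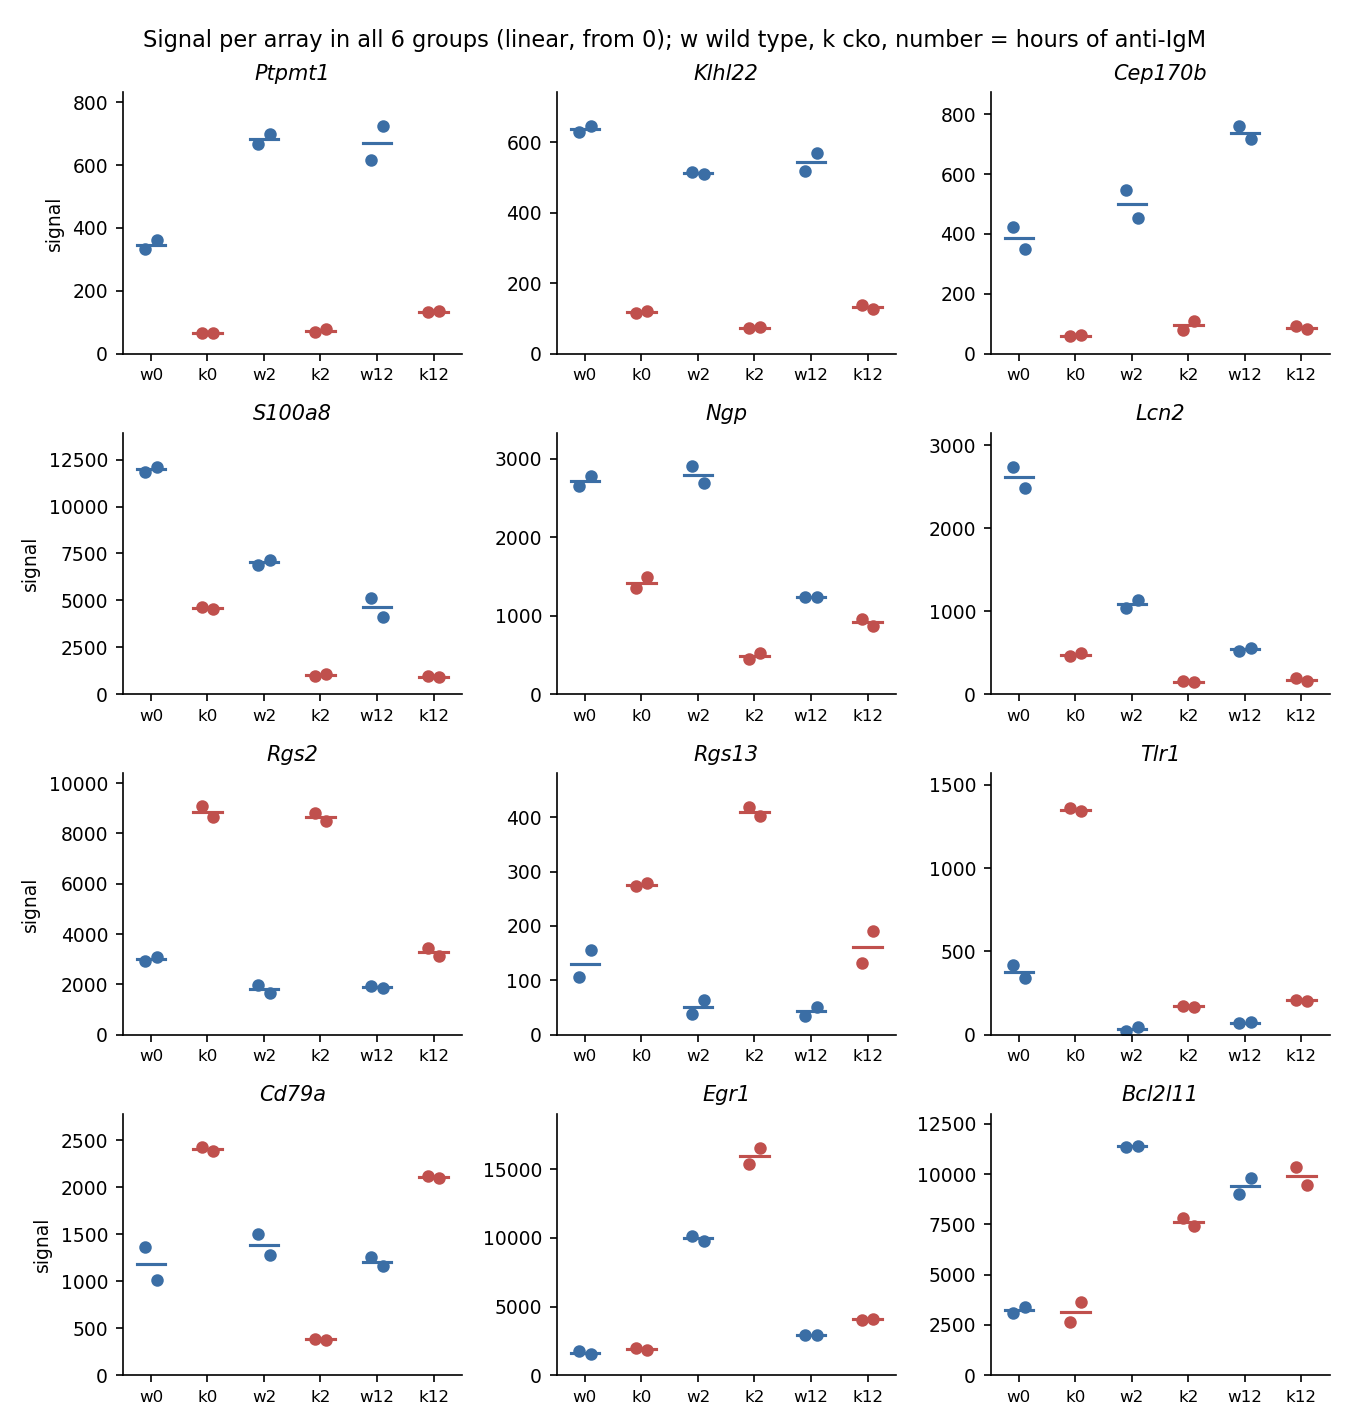
Linear signal on each array (points) with group means (bars) in all 6 groups, blue wild type (w), red cko (k), numbers for hours of anti-IgM, for 12 genes, each with its own axis from 0. Ptpmt1, Klhl22 and Cep170b are low in cko at each time, Rgs2 and Rgs13 are high, and Cd79a is low in cko at 2 h alone, where it gave 389 and 378 against 1505 and 1276.

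The test of the difference between times, (cko minus wild type at 2 h) minus (cko minus wild type at 0 h), called 2491 genes (20.4%), 1047 positive and 1444 negative. The 0 h and 2 h arrays differ in their control ratios, and median scaling turned the split to 1314 positive and 1014 negative, 56.4% positive in place of 42%. Among the genes with the largest positive values, Map3k12 went from -1.12 ± 0.27 at 0 h to 1.90 at 2 h (interaction 3.02 ± 0.38), and Esrp2, a splicing factor, from -1.65 to 1.29 (2.94 ± 0.32). Cd302, a C-type lectin, went from -1.63 to 1.27 (2.90 ± 0.33) and Ccdc39 from -0.89 to 1.79 (2.67 ± 0.37). Adcy9, an adenylate cyclase, stood at -3.14 at 0 h and was not called at 2 h (-0.61), an interaction of 2.53. Zdhhc12 was not called at 0 h (-0.32), an interaction of 2.33, which was 1.55 without cko array 2 of 0 h.

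Among the largest negative values, Cd79a stood at 1.03 ± 0.12 at 0 h and -1.81 at 2 h (interaction -2.84 ± 0.16). Its signals were 1363 and 1012 in wild type and 2431 and 2391 in cko at rest, so the order of the genotypes turned. At 12 h cko was again higher (0.80). Atic went from 1.30 to -1.38 (-2.68 ± 0.12), Syt11, a vesicle protein, from 1.58 to -0.91 (-2.49 ± 0.27) and Ankrd52, a subunit of protein phosphatase 6, from 0.24 to -2.11 (-2.35 ± 0.33). The Syt11 value at 2 h was -0.54 without wild-type array 2. Hira, a histone chaperone, went from 1.38 to -1.13 (-2.51), where the 2 h call was lost without wild-type array 1 (-1.27), wild-type array 2 (-0.996) or cko array 2 (-0.38), and the value was -1.88 without cko array 1. Akr1c13, an aldo-keto reductase, was near the floor at 2 h on all 4 arrays (1.97 to 18.6) and carried its interaction of -3.56 from a value of 2.88 at 0 h.

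Several gene lists differed between the times. In the interaction, 9 of 12 follicular markers were negative and 1 positive, against 11.8% and 8.59% of all genes. The joint list of EGR corepressors and MYC network genes had 4 of 11 negative. Heat shock genes had 9 of 16 negative and 1 positive. At 0 h, 10 of the 16 heat shock genes had been higher and 1 lower, against 16.3% and 16% of all genes. Hspa1b stood there at 1.94. Immediate early genes had 6 of 29 positive and 3 negative values, with Nr4a2 at 1.06 ± 0.27, Ier2 at 1.04 ± 0.13 and Egr1 at 0.47 ± 0.09. Of the stress response list, 2 of 17 were positive and 1 negative. Mxd4 (-2.04 ± 0.15), Max (-1.48 ± 0.24) and Bcl3 (-1.25 ± 0.13) had interactions called negative: Mxd4 and Max were higher in resting cko cells, Bcl3 was not called there, and all were lower after 2 h. Over the mean of probe sets the Mxd4 call was lost (-0.73). Bcl2l11 was not called at 0 h (-0.06), and its interaction of -0.52 ± 0.15 was lost without any one of several arrays, for example without cko array 2 of 0 h (-0.30).

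**Figure D5:**
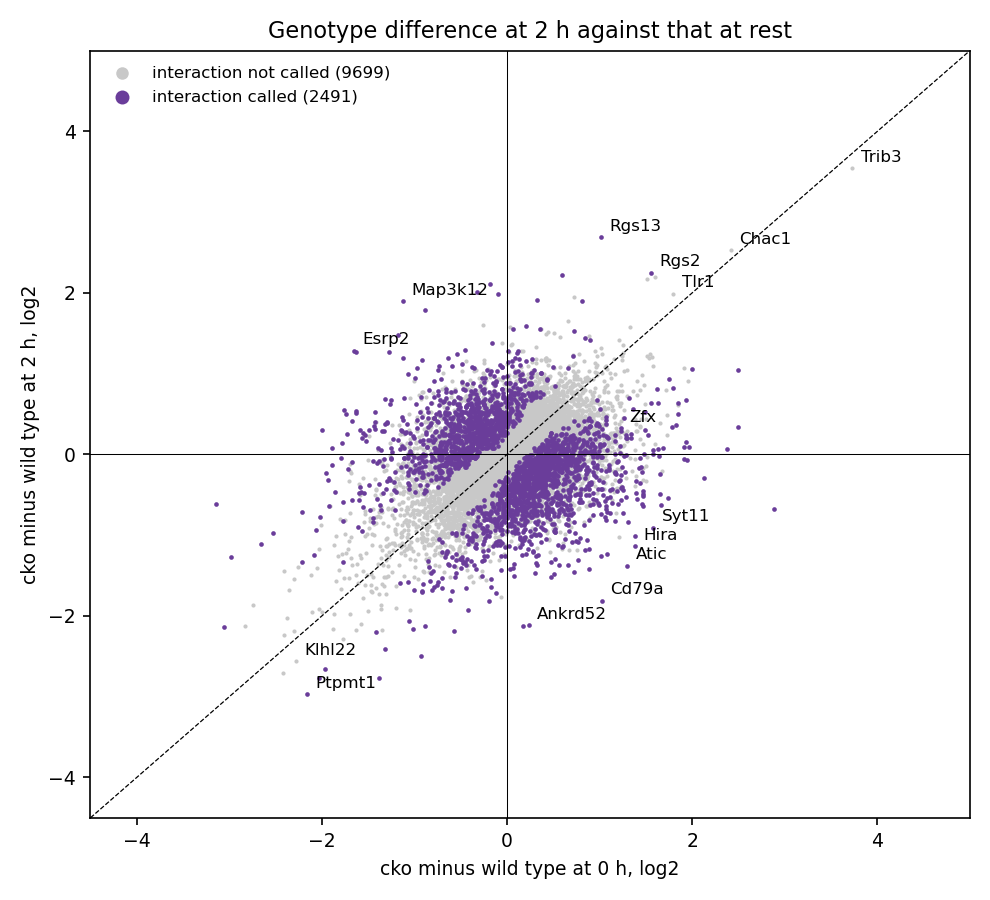
Difference between genotypes after 2 h against that at 0 h (both cko minus wild type, log2), 1 point per gene, purple where the interaction was called. Trib3 and Chac1 lie near the dashed line of equal differences, Rgs13 and Map3k12 above it and Cd79a, Atic and Ankrd52 below it.

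Probe sets of a gene did not always move together. In 61 genes, probe sets were called in opposite directions after 2 h. The widest gaps were in Daam1, a formin that assembles actin filaments (0.94 on a probe set with means of 261 and 518, -2.31 on another with 108 and 9.04), and Ywhaz, a 14-3-3 protein (2.03 with 321 and 1364, -0.34 with 3560 and 2818). St6galnac2, a sialyltransferase, had 1.62 and -0.70, and Ssh1, a phosphatase of cofilin, 0.94 and -1.33. Each gene's level above is that of its brightest probe set.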

How the data were processed

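RNA of sorted splenic follicular B cells was amplified over 2 rounds from 100 ng and hybridized to Affymetrix Mouse Genome 430 2.0 arrays, per the labels' protocols. The deposited values are signal intensity on a linear scale from GCOS 1.4, per the submitters' processing notes. They show a 2% trimmed mean of 250 on each array, and no further normalization was applied. The log2 values were computed here as log2(signal + 16) of the deposited intensities. Of 45101 probe sets, 34945 had 1 gene symbol in the platform annotation, and 34741 of these (99.4%) matched RefSeq. Probe sets with a mean above the 40th percentile (5.14) were kept (21906), and the brightest stood for a gene (12190 genes). limma 3.58.1 in R 4.3.3 fitted 1 mean per group over the 12 arrays with an intensity trend in eBayes (6 residual and 7.3 prior degrees of freedom), with Benjamini-Hochberg adjustment over all genes and a call under 0.05. The fit was tested on simulated data.

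Named genes were the 12 largest rises and 12 largest falls among called genes with groups that do not overlap and a mean signal of at least 100 in the higher group, up to 8 members of each of 48 lists, the 6 largest interactions in each direction, and a fixed set around Zfx, survival and the cell cycle. Opposed probe sets were named by the size of their gap. The comparison, the members and the lists were chosen with earlier results of these data known. The values were also analysed after quantile normalization or scaling to equal medians, with a pseudocount of 1 or 64, with no filter or one at the 60th percentile, without the intensity trend, with weighted arrays, on just the arrays compared, with replicate numbers blocked, with probe sets averaged per gene, with a 2-fold minimum, and with each array left out. Leaving out the 12 h arrays was added after seeing the data. Same-numbered arrays did not deviate together, so the numbers were not used as pairs. The number of arrays limits the precision. Figures were drawn with matplotlib 3.10.9 in Python 3.11.15.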

Additional observations from a re-analysis of the deposited data

Results flagged for a closer look

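The genotype difference after 2 h was set against that at 0 h, on other arrays, by the interaction term of limma with Benjamini-Hochberg adjustment over all genes. Among 48 genes named for the size of their change or as a fixed set, 28 had a called interaction, 10 positive and 18 negative, and 8 of them were called in the opposite direction at 0 h. The background is 20.4% of all genes, and genes chosen for a large interaction had to be among them.

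The negative interactions of the genes chosen for that measure were -3.56 in Akr1c13, -2.84 in Cd79a, -2.68 in Atic, -2.51 in Hira, -2.49 in Syt11 and -2.35 in Ankrd52. Over the mean of probe sets the calls on Hira (-1.16) and Syt11 (-0.47) were lost. The 12 largest rises and falls were chosen by their 2 h difference, a term of the interaction, so the choice favours values of the same sign. Among the falls, Lcn2, Klhl22, Cep170b, Cyp4f18 and Mki67 had no called interaction. The other falls were further apart after 2 h than at rest. Their values were -1.57 in Ngp, -1.39 in S100a8, -1.096 in Camp, -0.81 in Ptpmt1, -0.79 in Wfdc21, -0.73 in S100a9 and -0.69 in Chil3. The myeloid list's summed signal was 24902 and 25418 in wild type and 10736 and 10850 in cko at 0 h, and 18006 and 18038 against 3289 and 3585 at 2 h, and its part in these values was not tested. Zfx stood at -0.91, the CDK inhibitor Cdkn1a at -0.84, Ccnd2 at -0.53, Bcl2l11 at -0.52 and Mcl1 at -0.26. Over the mean of probe sets the calls on Zfx (-0.21), Cdkn1a (-0.57) and Bcl2l11 (-0.22) were lost, and Mcl1 changed sign (0.028).

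Positive interactions were 3.02 in Map3k12, 2.94 in Esrp2, 2.90 in Cd302, 2.67 in Ccdc39, 2.53 in Adcy9 and 2.33 in Zdhhc12. They were 1.67 in Rgs13, 1.096 in Slc1a4, 0.70 in Rgs2 and 0.47 in Egr1. Over the mean of probe sets the calls on Rgs2 (0.26) and Slc1a4 (0.22) were lost. The Slc1a4 call was lost without 6 of the 8 arrays, each left out alone (0.81 without cko array 1 of 0 h), that of Wfdc21 without 5 of them (-0.59 without the same array), and that of Mcl1 without wild-type array 1 of 0 h (-0.25), wild-type array 1 of 2 h (-0.23) or cko array 2 of 0 h (-0.22).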

How the results depend on the processing

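At 2 h, the higher and lower counts (1560 and 1909) lay within 1.5 times under each other normalization, pseudocount, filter and model tried, and the 2-fold minimum left 136 and 372. With 1 array left out, 940 to 1076 genes were higher and 1359 to 1465 lower. For the interaction (1047 and 1444) the 2-fold minimum left 243 and 356, and the mean of probe sets gave 752 and 842, median scaling 1314 and 1014. With 1 array left out the interaction gave 725 to 880 positive and 1112 to 1195 negative calls. Same-numbered arrays share only a number, and with the replicate block 1556 genes were higher and 1900 lower at 2 h. Of the 194 genes described, 38 lost their 2 h call without at least 1 array. The mean of probe sets ended the 2 h call of 13 others, with Syt11 at -0.15, Ddit3 0.48, Spred2 0.45, Tnfaip3 -0.17, Sos1 -0.41, Cd22 -0.27, Aen 0.35, Keap1 -0.40, Txnrd1 -0.56, Psmd2 -0.22, Il6ra -0.55, Itga4 -0.12 and Dtx1 -0.31. Among the 194 genes, no called 2 h value changed sign in the alternatives run, and none was called there with the opposite sign. Called interactions changed sign under quantile normalization for Mcl1 (0.021), and over the mean of probe sets for Mcl1 (0.028), Sod1 (0.20), Cd55 (0.0074) and Dtx1 (0.12). Interactions near 0 and not called in the main fit were called positive for Ms4a1 under quantile normalization (-0.01 to 0.24) and for Jak2 over the mean of probe sets (-0.056 to 0.57). The cause was not tested. Signals near the floor and 2 arrays a group limit what can be called.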
